A study of Mus musculus with 27 samples.

Results

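The mitochondrial respiratory chain passes electrons from NADH and succinate to oxygen through complexes I to IV, and the proton gradient that this builds drives ATP synthase, also called complex V. A few core subunits are encoded in the mitochondrial DNA, and all others come from nuclear genes whose proteins are imported and fitted together. In the retina, mitochondria crowd the inner segments of photoreceptors and the synaptic layers, where ion pumping and transmission use much ATP. The nuclear genes described here were chosen by symbol alone, as entries with a Gene ID whose symbols begin with Ndufa, Ndufb, Ndufc, Ndufs, Ndufv, Uqcr, Cox4i, Cox5, Cox6, Cox7, Cox8 or Atp5, without the assembly factors named Ndufaf and without pseudogenes. Of 22219 symbols with a Gene ID, 78 met this rule: 36 of complex I, 8 of complex III, 17 of complex IV and 17 of complex V. Ndufa4 was counted with complex IV, of which it is a subunit despite its name, and its relative Ndufa4l2 was placed beside it. RefSeq lists Atp5sl as Dmac2, a factor that helps to build the membrane arm of complex I and is no subunit of ATP synthase, and Atp5s as Dmac2l. Both are counted under complex V by their symbols. In the annotation, 25 of the 78 share exonic bases with a gene on the opposite strand, and the strand setting of the counts is not given in the sources used here.

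Whole retinas came from wild type, untreated C57BL/6J mice (an inbred strain) and were taken at embryonic days 14 and 17 (E14, E17) and postnatal days 1, 6, 15, 28 and 60 (P1, P6, P15, P28, P60), and total RNA was sequenced. E14, E17 and P6 had 3 libraries apiece, P60 had 6 and the remaining ages had 4, which makes 27. Most libraries were pools of several animals, some at P60 came from single mice that the study does not name, and the sexes were mixed up to P1 but male later, so that sex and age cannot be told apart in comparisons with E14, E17 or P1. Mature retina stands for P15, P28 and P60 (14 libraries) and embryonic retina for E14 and E17 (6 libraries).

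Nothing states whether pools of the same age shared animals, so p-values measure the spread between these libraries. Values are CPM, the reads of a gene scaled to the total reads of its library. The reads recovered from the table came to 7076646 to 11330762 per library (median 7968785), which are the reads counted for its features and not all reads sequenced, and 3 reads, the most that a count of 0 was taken to allow, stood for 0.265 to 0.424 CPM. Markers moved as the labels imply, with 8 rod genes summing to 24.5 CPM on average at E17 and 28451 at P60, and 8 progenitor genes to 5593 at E14 and 181 at P60. Pigment epithelium markers, from a neighboring tissue rich in mitochondria, summed to 3.90 to 7.20 CPM per library at E14 and 56.1 to 95.2 at P15 (none of the 7 was at 0 in all libraries of an age), with Rpe65 at means of 0.176 and 6.55 CPM, and their part in the results was not tested. At P60, replicates 3, 4 and 5 had the lowest median-of-ratios size factors of all libraries (0.870, 0.936 and 0.934). Chi-square per degree of freedom, a measure of spread against sampling noise, was 3.127 between replicates 1 and 2. Between either of these and replicates 3, 4 and 5 it was 12.154 to 19.276. Replicate 6 lay between, at 4.367 to 8.538 from the others. Of the 78 genes, 77 passed a filter of at least 1 CPM in at least 3 libraries. The other, Cox8b, reached 0.613 CPM in 1 library and was not tested.

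Together, the 78 genes took up a similar share of the counted reads in embryonic and mature retina, with a higher share at P6. They summed to 1849 ± 43.7 CPM (SD, n = 6) in embryonic and 1901 ± 96.8 CPM (n = 14) in mature retina, and the libraries of both groups overlapped. By age the sum was 1880 ± 38.8 at E14 (n = 3), 1817 ± 15.6 at E17 (n = 3), 1769 ± 88.4 at P1 (n = 4), 2186 ± 60.1 at P6 (n = 3), 1906 ± 65.8 at P15 (n = 4), 1974 ± 88.9 at P28 (n = 4) and 1849 ± 97.8 at P60 (n = 6). P6 stood above all other ages, since its lowest library (2140) exceeded the highest of any other age (2077, at P28). Single genes were also fairly even, though less so than the sum, whose age means lay within 1.24 times of each other: the highest age mean of a gene was a median of 1.56 times its lowest, against 2.69 times over all 31760 features tested, and 63 of the 77 stayed under 2-fold. In whole-tissue RNA, fewer cells of a type and less RNA per cell cannot be told apart, so the sums describe the tissue and not its cells.

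**Figure D1:**
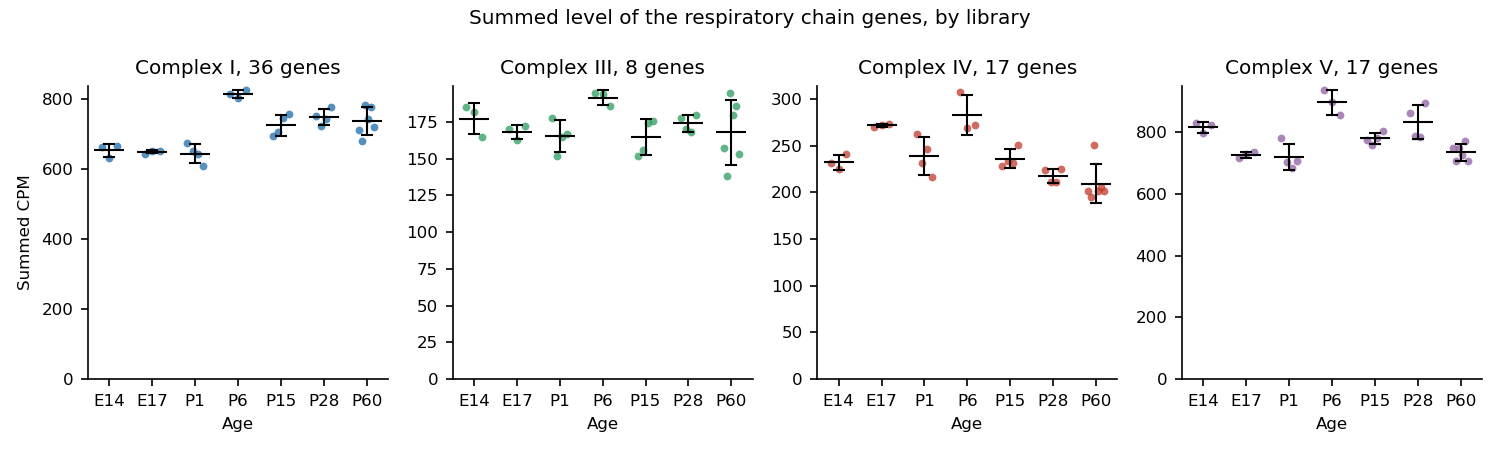
Summed CPM of the genes of complexes I, III, IV and V (y axes, from 0) in each of the 27 libraries (points) by age (x axis), with the mean and SD as black bars. Complex I sits at 632 to 667 CPM in embryonic and 682 to 785 CPM in mature libraries, and all 4 complexes are higher at P6 than in any P1 library.

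The 4 complexes did not share 1 course. Complex I summed to 652 ± 12.8 CPM (SD, n = 6) in embryonic retina and 738 ± 32.0 (n = 14) in mature retina, 1.13 times as much, with no overlap between the libraries. Complex III was level, at 173 ± 9.03 and 169 ± 15.8 CPM, and so was complex V, at 771 ± 50.5 and 775 ± 53.1 CPM, with overlap in both. Complex IV was lower in mature retina, at 252 ± 22.0 and 219 ± 18.3 CPM, but its libraries overlapped too (225 to 273 embryonic, 195 to 251 mature). From E14 to E17 the libraries of complex IV went from 225 to 241 CPM to 270 to 273 CPM and those of complex V from 796 to 828 CPM to 715 to 735 CPM, both without overlap, and Ndufa4l2 alone accounted for means of 10.1 and 42.8 CPM of complex IV. Ndufa4l2 was far lower in mature retina (values below), so this single gene also made up most of the difference of complex IV between embryonic and mature retina. These sums weigh abundant genes most: Atp5b, the catalytic beta subunit of ATP synthase, gave 314 CPM of complex V in embryonic retina.

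The first question was which of these genes differed between mature and embryonic retina. At an adjusted p under 0.05 (limma on log2(CPM + 1)), 24 of the 77 genes rose (31.2%) and 19 fell (24.7%), against 35.0% and 40.4% of all features tested. The median log2 fold change was 0.04 for these genes and -0.06 for all features, and the median size of a change, in either direction, was 0.32 against 0.62. Changes of at least 2-fold were fewer, with 3 genes higher and 1 lower, where 14.9% and 16.1% of all features passed the same limits. In 8 genes all mature libraries lay above all embryonic ones and in 3 below, and 17.4% and 23.0% of all features were separated in those directions. Without P60 replicates 3, 4 and 5, which had the lowest size factors, 24 genes rose and 25 fell. In complex I, 15 of 36 genes rose and 4 fell, while complex III had 2 and 3 of 8, complex IV 2 and 5 of 16, and complex V 5 and 7 of 17 (4 and 7 without Atp5sl and Atp5s). The share of complex I that rose (41.7%) was near that of all features (35.0%), and the share that fell (11.1%) was below theirs (40.4%). The split of complex V depended on the scaling, as median-of-ratios scaling gave 6 rises and 3 falls and edgeR on all libraries 7 and 3.

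**Figure D2:**
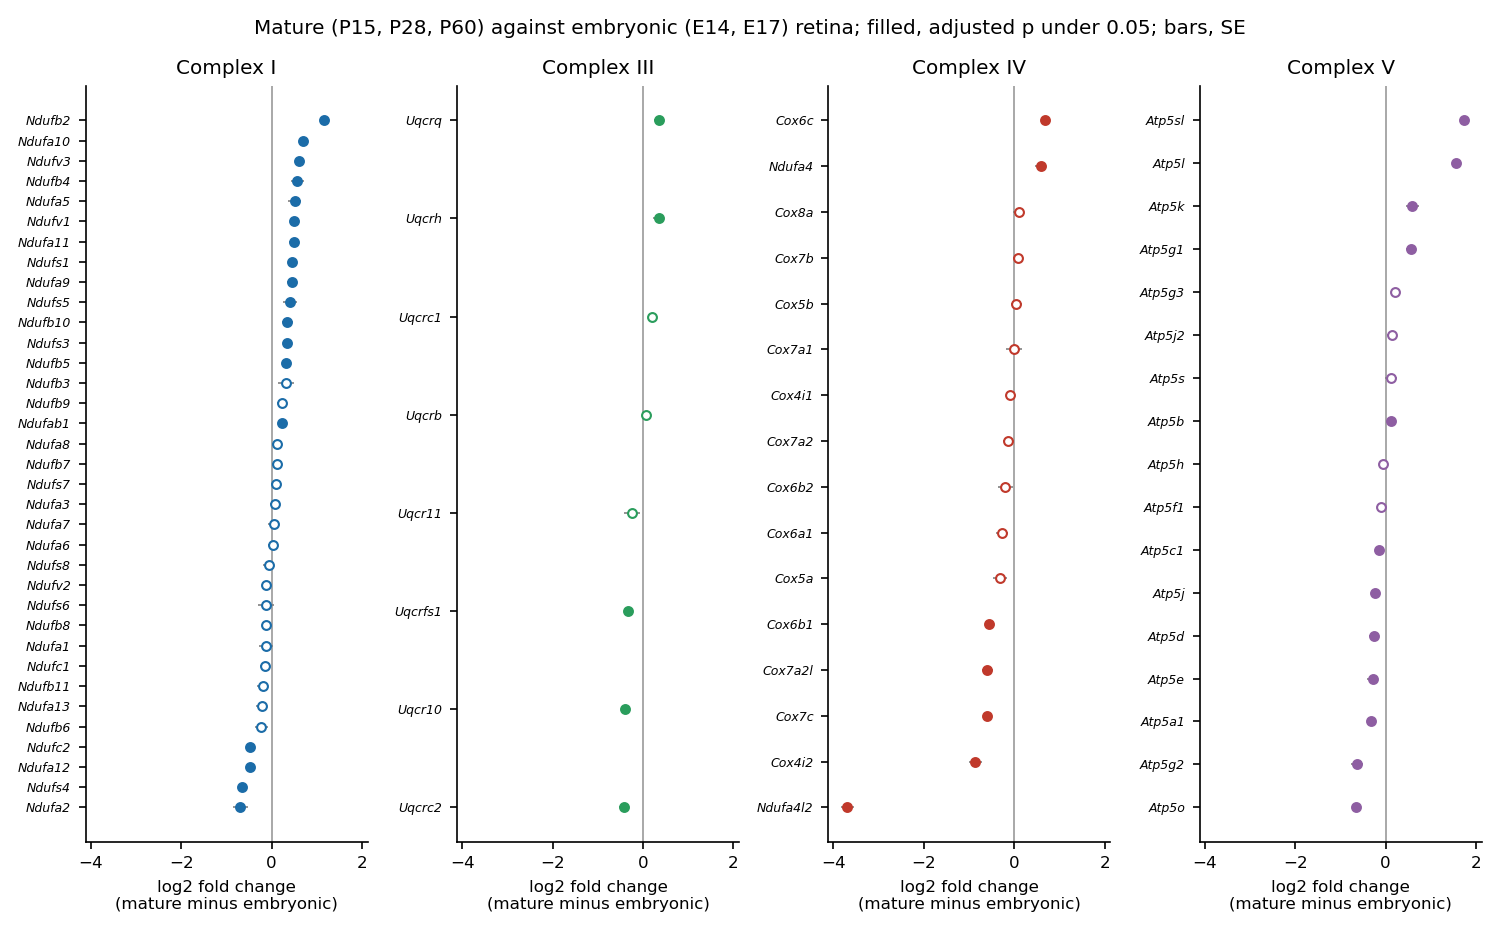
Log2 fold change of mature over embryonic retina (x axis) for 76 of the 77 genes tested, one row per gene, sorted within complexes I, III, IV and V. Points are limma estimates on log2(CPM + 1), bars are SE, and filled points have an adjusted p under 0.05. Most points lie within 1 of zero, and Ndufa4l2 stands alone at -3.69.

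In complex I, the core subunits from the nucleus carry the flavin and the iron-sulfur clusters and include the electron input. Ndufs1, the largest of them, was at 56.1, 50.3 and 61.6 CPM at E14, at 57.7, 55.8 and 49.1 at E17, at 60.7, 65.3, 58.8 and 57.3 at P1 and at 73.3, 71.9 and 78.0 at P6. It then held, with 71.2 to 84.3 CPM in the P15 libraries, 72.9 to 79.1 in those of P28 and 68.2 to 78.4 (median 71.0) in those of P60. Every library from P6 on was above every earlier one, and the log2 fold change of mature over embryonic retina was 0.45 ± 0.05 (SE, adjusted p = 8.1e-09, limma). Ndufs3, of the arm that binds quinone, and Ndufv1, which binds NADH, rose as well, by 0.34 and 0.49 ± 0.09, and Ndufs7, Ndufs8 and Ndufv2 did not pass (0.09, -0.06 and -0.12). Ndufs1 shares exonic bases with Eef1b2 on the opposite strand.

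Of the 29 other complex I subunits, 11 rose (37.9%) and 4 fell (13.8%), against 35.0% and 40.4% of all features. Ndufb2, a small subunit of the membrane arm, was at 14.2 to 17.8 CPM at E14, 18.8 to 21.3 at E17 and 16.3 to 21.9 at P1, then at 32.4, 35.5 and 35.4 CPM at P6 and 31.6 to 50.4 CPM in the 14 mature libraries. Its mature and embryonic libraries did not overlap, and the log2 fold change was 1.15 ± 0.08 (adjusted p = 8.9e-14, limma). The gene lies at chr6:39592574-39603382 (GRCm38, plus strand) and shares exonic bases with Braf, which is listed at 237 CPM in embryonic and 279 CPM in mature retina on the opposite strand. Ndufa10 was at 38.7 to 42.4 CPM in embryonic and 54.6 to 81.9 CPM in mature libraries (0.70 ± 0.06, adjusted p = 4.4e-12), without overlap. Ndufv3 (0.60) and Ndufa9 (0.44) were also higher in every mature library.

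Ndufs4, an accessory subunit whose loss is a known cause of Leigh syndrome, went the other way. It was at 92.6, 80.4 and 83.1 CPM at E14, 76.5 to 79.4 at E17, 69.9 to 74.5 at P1 and 86.2, 87.2 and 90.3 at P6, after which the P15 libraries had 47.1 to 56.9 CPM, those of P28 47.3 to 55.5 and those of P60 39.0 to 60.8 (median 50.2). No library after P6 reached the lowest of the earlier ones, and the log2 fold change of mature over embryonic retina was -0.65 ± 0.07 (adjusted p = 4.0e-10, limma). Ndufa2 (-0.69), Ndufa12 (-0.48) and Ndufc2 (-0.47) also fell, with overlap between the groups in each. Ndufa2 shares exonic bases with Tmco6 on the opposite strand, which is listed at 7.05 CPM in embryonic and 4.59 CPM in mature retina (-0.56).

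**Figure D3:**
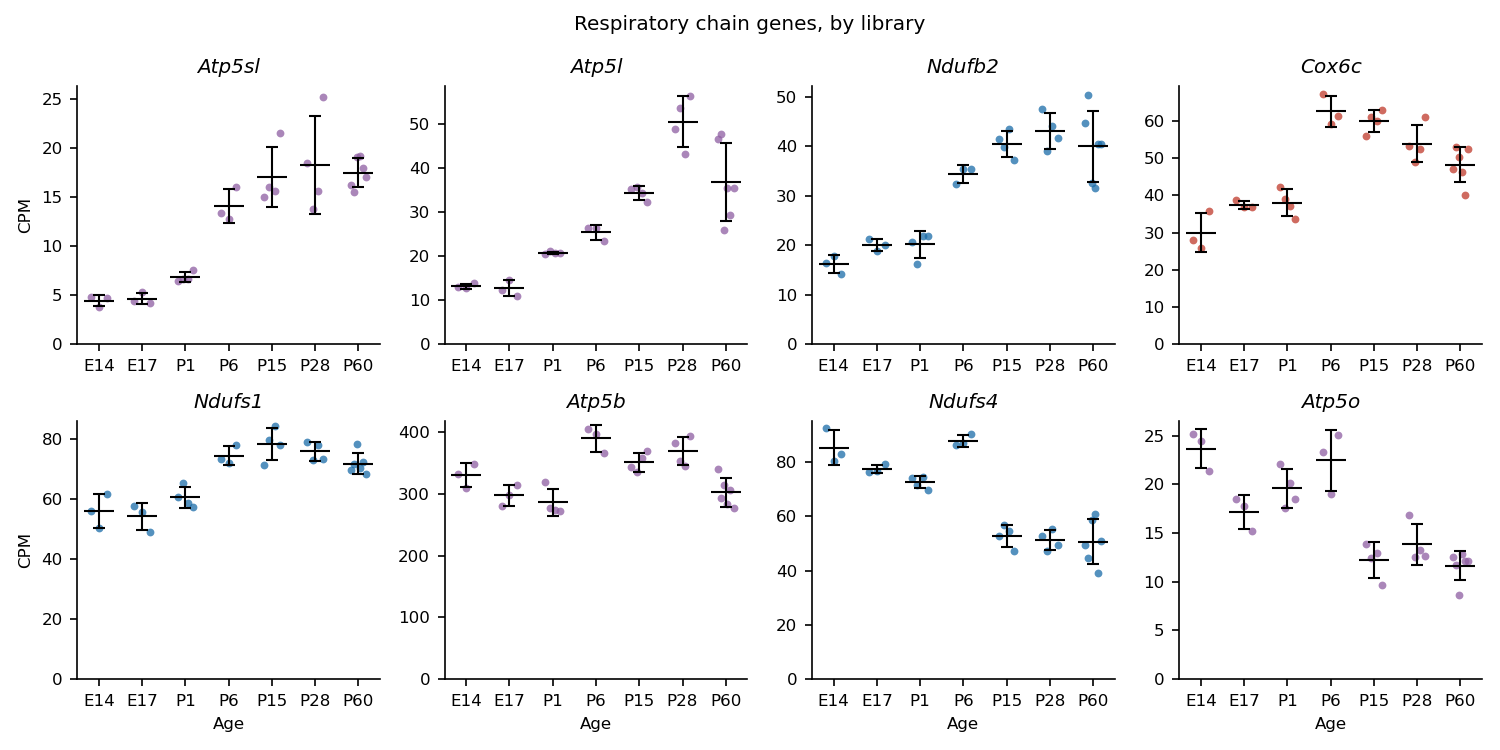
CPM (y axes, from 0) of 8 genes in each library (points) by age (x axes), with the mean and SD as black bars. Atp5sl, Atp5l, Ndufb2, Cox6c and Ndufs1 are higher from P6 on than at E14 and E17, Ndufs4 drops between P6 and P15, and Atp5b is highest at P6 (366 to 406 CPM).

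Complex III carries electrons from quinol to cytochrome c. Its iron-sulfur subunit Uqcrfs1 fell from 39.8 to 48.0 CPM in embryonic to 26.6 to 43.9 CPM in mature libraries (-0.32 ± 0.08, adjusted p = 0.00066, limma), and the core subunit Uqcrc2 (-0.43 ± 0.09) and the small subunit Uqcr10 (-0.39 ± 0.10) fell too. Uqcrq (0.36 ± 0.11) and the hinge subunit Uqcrh (0.35 ± 0.12) rose. The groups overlapped in all 5. The other core subunit, Uqcrc1, did not pass (0.21 ± 0.10, adjusted p = 0.053), and its P60 libraries ran from 35.9 to 73.5 CPM. For Uqcrh, an entry for the pseudogene Uqcrh-ps1 was listed above the gene itself, at 10.2 CPM in embryonic and 15 CPM in mature retina against 6.15 and 8.02 CPM, so the assignment of reads between them is uncertain.

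Complex IV, cytochrome c oxidase, held the largest change of all, in Ndufa4l2. Ndufa4 is a subunit of complex IV, and Ndufa4l2 is a related gene known to respond to low oxygen and to be high in pericytes. Ndufa4l2 was at 7.40, 10.7 and 12.2 CPM at E14, 40.6, 43.0 and 44.9 at E17, 22.8, 14.2, 21.0 and 17.5 at P1 and 11.0, 10.9 and 11.7 at P6. It was then at 0.669, 1.19, 2.31 and 1.51 CPM at P15, at 0.666, 0.281, 0.135 and 0.126 at P28 and at 0.251 to 1.05 (median 0.620) at P60. The E17 libraries were above all others, and no library after P6 reached the lowest earlier one. The log2 fold change of mature over embryonic retina was -3.69 ± 0.14 (adjusted p = 3.1e-21, limma), and -4.90 with a pseudocount of 0.1 in place of 1. It rose from E14 to E17 (2.01 ± 0.23) and fell at each of the next 4 steps, with log2 fold changes of -1.16, -0.68, -2.38 and -0.87. With a pseudocount of 0.1 the falls from E17 to P1 and from P1 to P6 did not pass (-1.20 and -0.72, adjusted p = 0.052 and 0.15). The gene lies at chr10:127514967-127517154 (GRCm38, plus strand) and shares exonic bases with Shmt2 on the other strand, which is listed at 55.4 CPM in embryonic and 10.7 CPM in mature retina.

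Cox4i2, the isoform of subunit 4 that is known from lung and from cells exposed to low oxygen, also peaked at E17. Its libraries were at 6.00, 4.64 and 4.74 CPM at E14, 10.9, 10.1 and 11.4 at E17 and 4.97 to 6.38 at P1, and at 2.0 to 5.65 CPM in mature retina. It rose from E14 to E17 (0.95 ± 0.25, adjusted p = 0.0089, limma) and fell from E17 to P1 (-0.83 ± 0.23, adjusted p = 0.019), a fall that missed the threshold without E17 replicate 1 or 3 or P1 replicate 2 or 4 (adjusted p = 0.069, 0.085, 0.055 and 0.057), and mature retina was lower than embryonic retina (-0.86 ± 0.15). Its partner isoform Cox4i1 was at 26.8 to 32.4 CPM in embryonic and 19.9 to 39.9 CPM in mature libraries (-0.09, adjusted p = 0.43). Scaled per kb of exon, Cox4i2 made up 25.4% ± 1.43 (SD, n = 3) of the pair at E14, 43.0% ± 2.30 at E17, 28% ± 2.76 at P1 (n = 4) and 16.9% ± 1.28 at P6, and its mean stayed between 20.1% and 23.8% later.

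Other genes moved at the same ages. Of 10 genes known to be induced by low oxygen, a list added after these values were seen, 8 were tested: from E14 to E17 5 rose and none fell, where 7.56% and 3.02% of all features did, and from E17 to P1 none rose and 5 fell, where 5.77% and 3.43% did. From P1 to P6, when Ndufa4l2 fell, 5 of the 8 rose and 2 fell (18.0% and 20.4% of all features). Between embryonic and mature retina, where Ndufa4l2 and Cox4i2 both fell, 4 rose and 4 fell (35.0% and 40.4%). Bnip3 averaged 13.0, 27.9 and 11.5 CPM at E14, E17 and P1, Pdk1 46.3, 76.8 and 29.3 CPM, and Vegfa 137, 251 and 136 CPM, and Slc2a1, with no call from E14 to E17, fell from E17 to P1 (293, 286 and 191 CPM). All 10 together summed to 533 to 559 CPM per library at E14, 683 to 755 at E17 and 411 to 500 at P1, and they were at 426 to 688 CPM at P15, when Ndufa4l2 was at 0.669 to 2.31 CPM. The 8 pericyte markers, also added after these values were seen, summed to 45.1 to 50 CPM at E14, 34.4 to 43.8 at E17 and 233 to 247 at P15. Most of the first sums was Notch3 (38.5 and 25.1 CPM on average at E14 and E17, with no call), and the other 7 summed to 8.44 to 11.3 CPM at E14, 11.5 to 14.8 at E17 and 12.5 to 14.4 at P1. Among them Pdgfrb rose from E14 to E17 (4.22 and 10.1 CPM on average), Vtn fell (3.55 and 0.755 CPM), Rgs5 was at 0.359 CPM at E17 and 60.8 at P6, and Kcnj8 was at 0 in every library up to P1. What part low oxygen before or during collection, or pericytes, had in these levels was not tested.

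**Figure D4:**
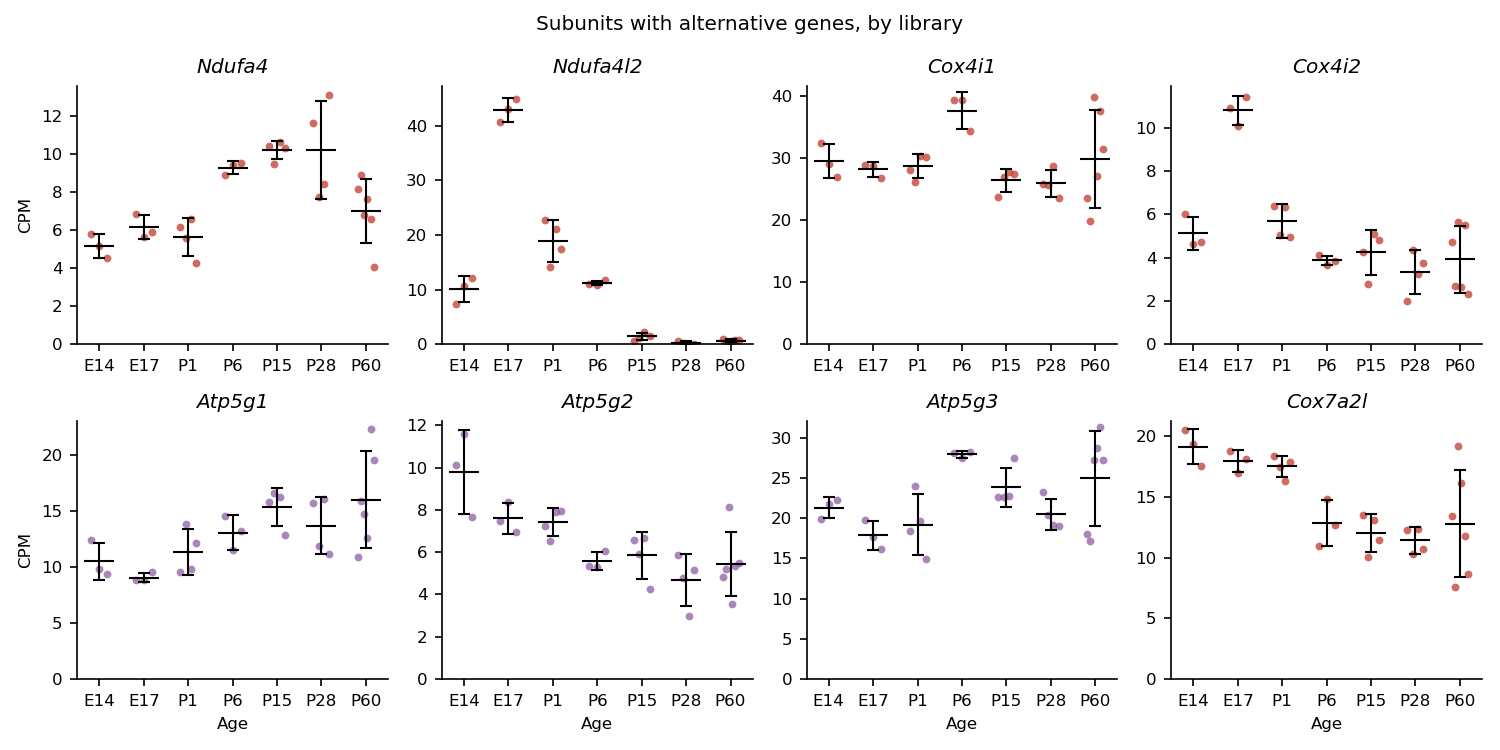
CPM (y axes, from 0) of 8 genes with alternative or related genes in each library (points) by age (x axes), with the mean and SD as black bars. Ndufa4l2 and Cox4i2 are highest at E17 (40.6 to 44.9 and 10.1 to 11.4 CPM). On average, Atp5g1 is higher and Atp5g2 lower in mature than in embryonic retina.

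Most other complex IV genes changed little. Ndufa4 itself rose from 4.53 to 6.85 CPM in embryonic to 4.04 to 13.1 CPM in mature libraries (0.58 ± 0.12, adjusted p = 1.0e-04, limma), although the lowest mature library lay below all embryonic ones. Cox6c, a small nuclear subunit, was the other to rise, from 26 to 38.7 to 40.2 to 63.0 CPM, without overlap (0.67 ± 0.07, adjusted p = 2.9e-10). It shares exonic bases with Vps13b on the opposite strand, which is listed at 166 CPM in embryonic and 258 CPM in mature retina (0.62). Cox7c was at 28.7 to 32.3 CPM in embryonic and 15.4 to 23.6 CPM in mature libraries, again without overlap (-0.61 ± 0.08, adjusted p = 3.8e-08). Cox7a2l, which serves in joining complexes III and IV into supercomplexes, fell (-0.60), as did Cox6b1 (-0.56), both with overlap, while Cox5a (-0.32, adjusted p = 0.058), Cox6a1 (-0.27), Cox6b2 (-0.20), Cox7a2 (-0.13), Cox7b (0.08) and Cox8a (0.10) did not pass. The forms known from heart and skeletal muscle were scarce, as Cox7a1 averaged 0.464 CPM in embryonic and 0.506 CPM in mature retina and Cox8b 0.147 and 0.178 CPM, near what 3 reads stand for.

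Of the genes counted under complex V, the 2 with the largest rises were Atp5sl and Atp5l, the latter a subunit of the enzyme. Atp5sl (Dmac2) was at 3.80 to 5.29 CPM in embryonic libraries, 6.50, 6.68, 6.67 and 7.57 at P1, 13.4, 12.8 and 16.1 at P6 and 13.8 to 25.3 (median 16.7) in mature libraries, with a difference of 1.74 ± 0.10 on the log2 scale (adjusted p = 5.2e-16, limma). Atp5l, subunit g at the base of the enzyme where its dimers form, climbed in smaller steps: 12.7 to 13.8 CPM at E14, 11.0 to 14.6 at E17, 20.5 to 21.1 at P1, 23.4 to 26.4 at P6, 32.2 to 35.7 at P15 and 43.2 to 56.3 at P28. At P60 its libraries spread from 26 to 47.6 CPM. Both genes were higher in every mature than in every embryonic library, and Atp5l had a log2 fold change of 1.55 ± 0.09 (adjusted p = 6.6e-16). It rose from E17 to P1 (0.68), P6 to P15 (0.42) and P15 to P28 (0.54) and fell from P28 to P60 (-0.47), and no other of the 77 genes rose at any of those first 3 steps. The rise from P6 to P15 did not pass when the entries of a symbol were summed (0.24, adjusted p = 0.20), nor without P6 replicate 3 (adjusted p = 0.11) or P15 replicate 2 (0.055). The fall of Atp5l from P28 to P60 did not pass without P60 replicates 3, 4 and 5 (-0.22, adjusted p = 0.40, limma). It also missed the threshold with only the ages compared (0.17), a replicate block (0.061) or P28 replicate 2 left out (0.054). Its 2 other entries averaged 4.86 and 4.33 CPM in embryonic and 9.89 and 3.85 CPM in mature retina, so the entries of this gene differed in course, and the gene shares exonic bases with Gm30934 on the opposite strand. Atp5k, another small subunit of that base, rose by 0.59 from a mean of 1.03 to 2.08 CPM, and by 0.93 with a pseudocount of 0.1 and 1.12 in edgeR on all libraries.

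Of the 5 subunits of the catalytic head of ATP synthase, 1 rose and 4 fell, and with median-of-ratios scaling or edgeR 1 rose and 1 fell. Atp5b was at 281 to 349 CPM in embryonic and 278 to 394 CPM in mature libraries (0.11 ± 0.05, adjusted p = 0.032, limma), and it missed the threshold without E14 replicate 2 or E17 replicate 1 (adjusted p = 0.11 for each), E17 replicate 2 (0.052) or P28 replicate 4 (0.054). Its partner Atp5a1, the alpha subunit, fell from 165 to 201 CPM to 130 to 183 CPM (-0.32 ± 0.05, adjusted p = 4.9e-06), and Atp5c1 (-0.15), Atp5d (-0.26) and Atp5e (-0.29) fell too. Those last 3 did not pass under median-of-ratios scaling (adjusted p = 0.38, 0.13 and 0.12) or in edgeR on all libraries (0.54, 0.22 and 0.17), and neither did the stalk subunit Atp5j (adjusted p = 0.080). In limma, Atp5c1 also missed the threshold with a replicate block (0.052) and without any of several single libraries, such as E17 replicate 2 (0.13). Atp5e did so with only the ages compared (0.058) and without any of several single libraries, such as E14 replicate 2 (0.11). Atp5o, a stalk subunit that holds the head, was at 15.2 to 25.2 CPM in embryonic and 8.66 to 16.9 CPM in mature libraries (-0.65 ± 0.09, adjusted p = 2.0e-07). Atp5o could not be placed in the annotation used here, as its symbol stands there for several genes.

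The proton-carrying c ring is built of 1 protein made by 3 genes, whose products differ only in the import sequence that is cut off. Atp5g1 rose from 8.82 to 12.4 CPM in embryonic to 10.9 to 22.4 CPM in mature libraries (0.56 ± 0.12, adjusted p = 9.3e-05, limma), Atp5g2 fell from 6.94 to 11.6 CPM to 2.98 to 8.16 CPM (-0.63 ± 0.13, adjusted p = 7.5e-05), and Atp5g3 did not pass (0.21 ± 0.10, adjusted p = 0.065), although it did in edgeR (0.34, adjusted p = 0.0074). Per kb of exon, with only the kept entry of each gene, Atp5g2 made up 32.7% ± 4.74 (SD, n = 3) of the 3 at E14 and 18.4% ± 4.80 (n = 6) at P60, Atp5g1 12.1% ± 1.96 and 18.2% ± 3.44, and Atp5g3, the highest of these at every age, 55.2% ± 5.19 and 63.4% ± 6.04. Atp5g2 had another entry, at 5.05 CPM in embryonic and 1.6 CPM in mature retina, and so did Atp5g1, at 1.48 and 1.22 CPM. At E14 the left-out entry of Atp5g2 averaged 6.09 CPM beside 9.8 for the kept one, so the shares depend on which entries are counted.

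Compared per kb of exon, Atp5b had the highest mean level of the annotated genes (77.8 CPM per kb), followed by Atp5a1 (51.2) and Cox8a (33.4), and Cox8b (0.511) and Cox7a1 (0.835) the lowest. Before that scaling, the mean CPM rose with exon length across the 77 annotated genes (Spearman rho 0.68), and after it no relation was left (rho 0.01). These genes share the libraries, so both values describe them only.

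The step from P1 to P6, when most progenitors leave the cell cycle and photoreceptors mature, had the most calls of the 6 steps between neighboring ages. Of the 77, 22 rose and 1, Ndufa4l2, fell, against 18.0% and 20.4% of all features, and the median log2 fold change was 0.25 against -0.03. The change was positive in 66 of 77 genes, and all P6 libraries lay above all P1 libraries in 35 genes, where 22.5% of all features were so separated, and below them in 4, where 25.4% were. Of the 22, 11 were in complex I, 1 in complex III, 4 in complex IV and 6 counted under complex V, Atp5sl among them. The largest were Atp5sl (0.94 ± 0.16), Ndufb2 (0.75 ± 0.13) and Atp5k (0.74 ± 0.23), followed by Ndufv3 (0.72), Cox6c (0.71), Ndufb9 (0.67) and Cox8a (0.67). Atp5k missed the threshold without P6 replicate 3 (adjusted p = 0.063) and Cox8a without P6 replicate 1 (0.073). Atp5b went from 320, 278, 274 and 273 CPM at P1 to 406, 398 and 366 CPM at P6 (0.44 ± 0.07, adjusted p = 9.7e-06, limma), with no overlap. Over the same step the rod markers went from 184 to 210 CPM to 3584 to 4476 CPM per library and the progenitor markers from 4784 to 5187 to 573 to 645 CPM, and the part that these shifts in cell makeup had was not tested.

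From P6 to P15, across eye opening, 1 gene rose and 12 fell, against 14.4% and 19.0% of all features, with a median of -0.15 against -0.06. The sum of all 78 genes dropped from 2140 to 2254 CPM to 1849 to 1987 CPM per library, 0.872 times, with no overlap. After Ndufa4l2, the largest falls were in Atp5o (-0.83 ± 0.14), Ndufs4 (-0.73 ± 0.11) and Uqcrfs1 (-0.60 ± 0.13). Atp5c1, Cox4i1, Ndufb9 and Ndufs4 rose into P6 and fell after it, and both of those steps rest on the same 3 P6 libraries. These are weak calls, as the rise of Ndufs4 missed the threshold without any 1 of the 7 libraries of P1 and P6, that of Cox4i1 without any 1 of them but P6 replicate 3, and that of Atp5c1 without P1 replicate 2 or 3 or P6 replicate 1 or 3, while the fall of Ndufb9 did not pass with median-of-ratios scaling or edgeR. The number of falls was 6 with median-of-ratios scaling and 7 with edgeR, and 6 without P6 replicate 1 and 8 without P6 replicate 3. Cox6c, Ndufb2, Ndufa10 and Ndufs1, which rose into P6, had no call from P6 to P15 and stayed above their E17 range. P6 was the age of the highest mean in 34 of the 77 genes (44.2%), and it was so in 13.2% of all features.

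**Figure D5:**
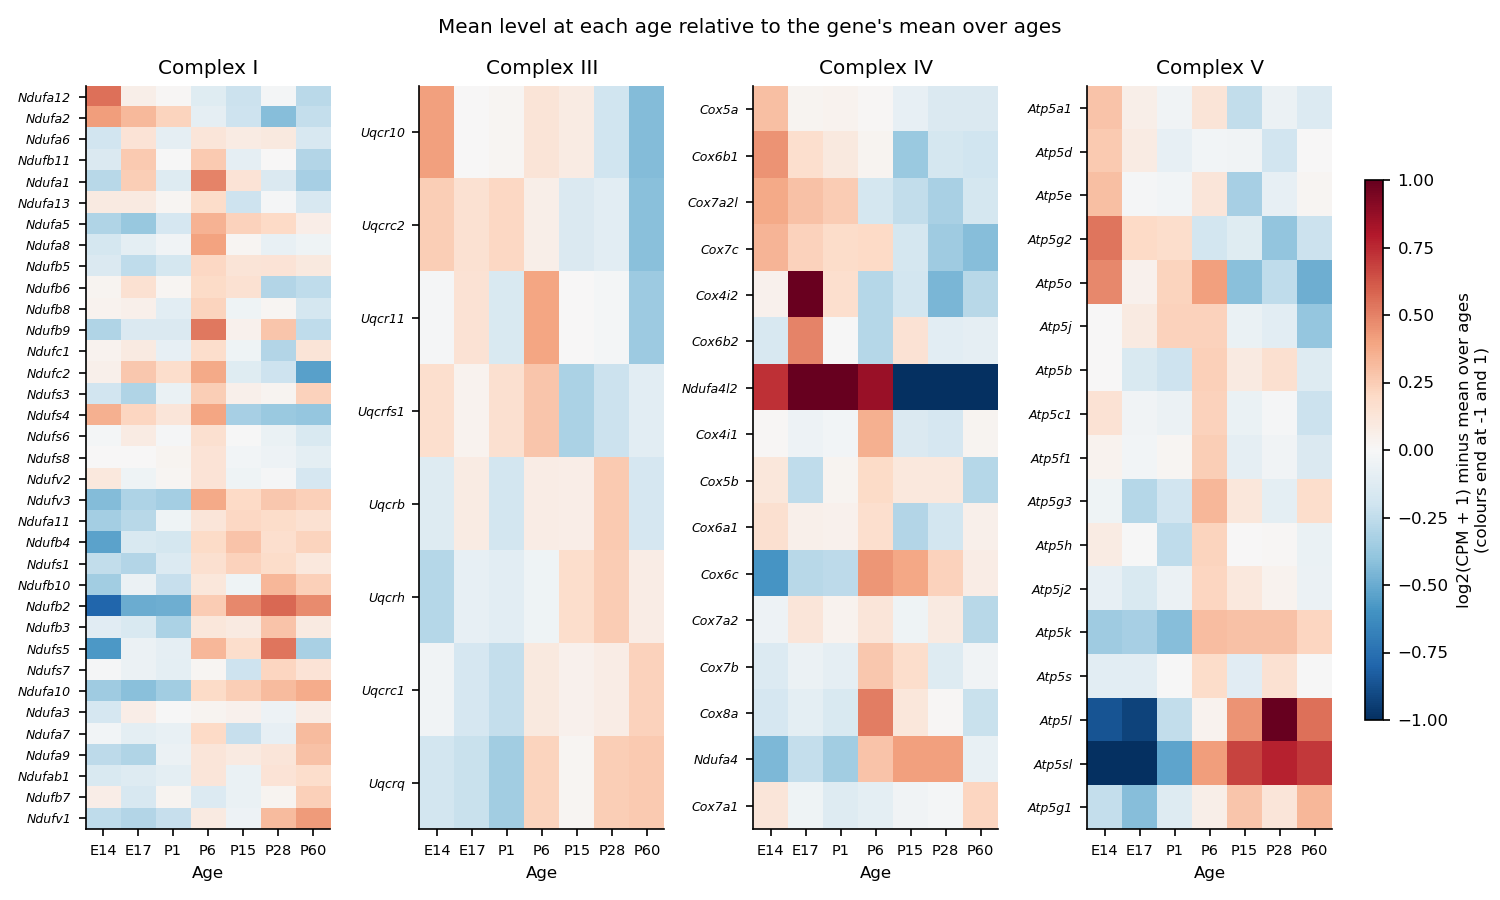
Mean level of 76 of the 77 genes tested at each age (columns) as log2(CPM + 1) minus the gene's own mean over the 7 ages, from blue (lower) to red (higher), with colors ending at -1 and 1. Genes are grouped by complex and ordered by the age of their highest mean, which is P6 for 33 of those drawn.

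The remaining steps were small for these genes. From E14 to E17, 2 genes rose (Ndufa4l2 and Cox4i2) and 1 fell (Ndufa12, -0.49 ± 0.14), against 7.56% and 3.02% of all features. The fall of Ndufa12 did not pass in edgeR on 26 libraries (adjusted p = 0.085) or without E14 replicate 1 (0.11), E17 replicate 1 (0.075) or E17 replicate 3 (0.056). From E17 to P1, 1 rose (Atp5l) and 2 fell (Ndufa4l2 and Cox4i2), against 5.77% and 3.43%. From P15 to P28, 1 rose (Atp5l) and 1 fell (Ndufa4l2), against 1.14% and 1.58%, and neither passed without P15 replicate 3 or without P28 replicate 4, nor Atp5l without P15 replicate 4 or P28 replicate 2. From P28 to P60 none rose and 6 fell, against 4.80% and 8.11%: Ndufs5 (-0.85 ± 0.21), Ndufa4 (-0.49), Ndufb9 (-0.49), Atp5l (-0.47), Uqcrb (-0.44) and Atp5b (-0.28). That last count is not firm, since edgeR on all libraries gave 1 rise and 4 falls, a limma fit of P28 and P60 alone made 0 calls, leaving out 1 library gave 2 (P28 replicate 4) to 10 (P60 replicate 1), and leaving out P60 replicates 3, 4 and 5 together gave 2.

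The promoters of these genes were read as a description, and matches were not compared with the calls from P1 to P6. RefSeq start sites of GRCm38.p6 were matched for 66 of the 78 genes, and windows of 300 bases were searched on both strands for the letters GCGC, any 2 bases and GCGC again, the core bound by NRF1, CCGGAAG, a core bound by ETS factors such as GABPA, and AANATGGCG, a core bound by YY1. All 3 factors are known regulators of respiratory chain genes. The NRF1 letters were in 17 of the 66 genes (25.8%, against 7.0% of all 27025 genes and 9.61% of the protein-coding ones), the ETS letters in 14 (21.2%, against 9.93% and 12.9%) and the YY1 letters in 11 (16.7%, against 2.76% and 3.64%). By the comparison of mature with embryonic retina, the NRF1 letters were in 6 of 20 matched genes that rose, 3 of 14 that fell and 8 of 31 with no call. A match describes the letters in the window and is not a measured site. Stretches of 6 windows are shown as examples of each motif, 5 from genes that rose between embryonic and mature retina (Atp5k, Ndufb4, Atp5l, Ndufs3 and Atp5b) and 1 from a gene that fell (Atp5o). They are read 5′ to 3′ on the gene's strand, with matches on either strand in capitals, and lie at chr5:108434370-108434549 (minus strand), chr16:37654339-37654518 (minus), chr9:44920723-44920967 (minus), chr2:90904692-90904871 (minus), chr16:91931601-91931780 (minus) and chr10:128083157-128083336 (plus).
Atp5k: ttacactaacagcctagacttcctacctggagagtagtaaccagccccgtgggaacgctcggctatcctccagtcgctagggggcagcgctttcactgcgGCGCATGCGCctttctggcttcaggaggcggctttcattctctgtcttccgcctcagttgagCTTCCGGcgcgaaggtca
Ndufb4: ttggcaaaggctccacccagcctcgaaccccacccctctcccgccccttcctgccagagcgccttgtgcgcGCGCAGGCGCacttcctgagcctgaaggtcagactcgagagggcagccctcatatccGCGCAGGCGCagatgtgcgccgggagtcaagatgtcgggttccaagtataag
Atp5l: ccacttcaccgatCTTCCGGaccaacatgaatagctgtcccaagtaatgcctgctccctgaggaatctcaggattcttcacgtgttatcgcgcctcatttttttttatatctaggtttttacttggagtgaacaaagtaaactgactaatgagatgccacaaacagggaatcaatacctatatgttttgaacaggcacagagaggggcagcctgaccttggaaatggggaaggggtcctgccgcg
Ndufs3: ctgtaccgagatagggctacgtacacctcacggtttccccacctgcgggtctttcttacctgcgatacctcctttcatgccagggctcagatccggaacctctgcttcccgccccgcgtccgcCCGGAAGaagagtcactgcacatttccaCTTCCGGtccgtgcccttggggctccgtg
Atp5o: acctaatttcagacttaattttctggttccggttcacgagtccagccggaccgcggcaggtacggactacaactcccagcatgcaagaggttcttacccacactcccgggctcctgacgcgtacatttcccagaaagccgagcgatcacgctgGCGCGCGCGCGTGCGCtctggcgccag
Atp5b: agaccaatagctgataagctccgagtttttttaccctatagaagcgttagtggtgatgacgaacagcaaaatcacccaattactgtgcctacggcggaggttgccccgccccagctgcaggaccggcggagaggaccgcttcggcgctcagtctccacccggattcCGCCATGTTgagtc
Atp5k holds 1 NRF1 and 1 ETS match. Ndufb4 holds 2 NRF1 matches here and 1 more upstream. Atp5l holds 1 ETS match here and 1 more past the stretch, Ndufs3 2 ETS matches on opposite strands, Atp5o 2 NRF1 matches that overlap, and Atp5b 1 YY1 match just past the start.

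The levels of these 3 factors fell over the step into P6. Of 15 regulators of mitochondrial gene expression, 5 rose and 6 fell over that step, where 18.0% and 20.4% of all features did. Between embryonic and mature retina 6 of them rose and 8 fell, where 35.0% and 40.4% of all features did. From P1 to P6 Nrf1 averaged 126 and 91.1 CPM (log2 fold change -0.47), Gabpa 87.3 and 63.0 CPM (-0.46) and Yy1 63.6 and 41.8 CPM (-0.59; adjusted p = 4.6e-06, 0.0059 and 5.3e-06, limma). Tfam, which packs and transcribes mitochondrial DNA, fell from 35.0 CPM at E14 to 11.2 CPM at P60, and Gabpa shares exonic bases with Atp5j. Of the related coactivators, Ppargc1a averaged 6.85 CPM at E14, 57.8 at P6 and 113 at P28, Ppargc1b 1.49, 136 and 133 CPM, and Pprc1, which fell (-1.22), 54.7, 16.9 and 17.4 CPM. Between those ages Ppargc1b was highest at P15, at 219 CPM, and it fell from P15 to P28 (-0.71). Pprc1 rose again from P28 to P60 (0.81), to 31.2 CPM. The largest rise of the list was in the estrogen-related receptor Esrrb, from 0.894 CPM at E14 to 308 CPM at P60.

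Partner genes of the pathway, taken from lists, went both ways between mature and embryonic retina, though few complex I assembly factors fell. The counts of all lists stand beside 35.0% of all features that rose and 40.4% that fell. The first list held complex II, cytochrome c and Cyc1, which encodes cytochrome c1 of complex III and lies outside the symbol rule. Of its 6 genes, 2 rose (Sdha, the flavoprotein that oxidizes succinate, 0.61, and Cyc1, 0.32) and 4 fell, with Sdhd (-0.80) and Sdhb (-0.34) the lowest. Of 13 enzymes of the tricarboxylic acid cycle, 6 rose and 4 fell: Idh3a (0.98) and Ogdh (0.85) rose most, and Suclg2, a succinate ligase subunit, went from 31.8 CPM at E14 to 2.42 CPM at P60 (-3.03). Of 14 complex I assembly factors, 7 rose and 1, Timmdc1, fell (-0.22). Ndufaf2 had the largest rise among them, and it came later than that of the subunits: 3.37 CPM at E14, 3.09 at P6, 9.70 at P15, 49.3 at P28 and 67.9 at P60. Of 29 assembly factors of complexes III, IV and V, 11 rose and 7 fell, led by Uqcc3 (1.53) and Pet100 (1.42) and by Taco1 (-0.87) and Sco2 (-0.46). Of the 7 protein genes of the mitochondrial DNA that were matched, COX1 rose (0.37) and ND3, listed near 1 CPM or lower, fell (-0.37). ND5 and ND6 were listed at nearly the same level at every age (2728 and 2694 CPM at E14), so reads may be counted for both.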

How the data were processed

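Total RNA of whole retinas was sequenced with single-end reads. The authors aligned the reads to GRCm38 with STAR and deposited 1 table of CPM values (reads scaled to the total of the library) for 38168 features in 27 libraries. The annotation, the strand setting and the treatment of reads that map to several places are not given in the sources used here. Of the features, 14905 carried no Gene ID. Where a symbol was repeated (6 genes), the entry with the highest mean CPM was used.

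The CPM values of the authors were whole multiples of 1 step per library, so whole reads were recovered from them (100.0% of values within 0.01 reads). For E14 replicate 1 the step lay close to a round decimal of 0.1, so edgeR was run with and without that library. Intervals were not computed, and the floor of 3 reads covers counting error only. No replicate pair agreed within sampling noise (chi-square per degree of freedom at least 1.687).

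The 31760 features that reached 1 CPM in 3 or more libraries were tested on log2(CPM + 1) with limma 3.58.1 (trend, R 4.3.3), age as the factor, all 27 libraries in 1 fit, and two-sided p-values adjusted by Benjamini-Hochberg over all 31760. A call is an adjusted p under 0.05. The pseudocount understates the changes of low genes. edgeR 4.0.16 (quasi-likelihood test, TMM) on the recovered reads was an alternative, as were a pseudocount of 0.1, other filters and scalings, only the ages compared, entries summed, a replicate block and leaving out each library. The edgeR fit of all libraries and the fit without P60 replicates 3, 4 and 5 were chosen after seeing the data. Both tests were checked on simulated data. Exon lengths and overlaps came from GENCODE M21 and promoter sequences from RefSeq (GRCm38.p6). The members and lists were chosen with earlier results of these data known, and the pericyte and low-oxygen lists after their values were seen. Genes are named by isoform group, core subunit and the largest changes in each complex and at each step. Others named here were chosen after their values were seen. The values of 1 gene are not reported here, though it is in all counts and sums. Of the marker lists not given above, lens, blood and muscle genes summed to at most 13.3, 50.3 and 6.59 CPM in any library, and Muller glia genes to 277 CPM on average at E14 and 1147 at P60.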

Additional observations from a re-analysis of the deposited data

Results flagged for a closer look

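Of 196 groups of 4 to 10 libraries, 14 held 1 library that lay far from the others of its age by Dixon's test, and chance flags about 1 in 20 groups. At P1, Atp5b was at 320 CPM in replicate 1 (273 to 278 in the others), Atp5sl at 7.57 in replicate 4 (6.50 to 6.68), Cox6b1 at 13.2 in replicate 2 (18.2 to 19.1) and Cox7b at 22.8 in replicate 4 (30.4 to 31.3). Replicate 4 of P15 held 4 of the 14, with Atp5g3 at 27.5 CPM (22.6 to 22.8), Atp5sl at 21.6 (15 to 16.1), Ndufa12 at 28.5 (18.2 to 18.7) and Uqcr10 at 9.62 (7.36 to 7.67), all above the other P15 libraries. Replicate 4 of P28 held Ndufa2 at 9.80 CPM (6.40 to 6.77) and Ndufb9 at 28.7 (13.9 to 15.7). At P60, the summed CPM of complex IV was 251 in replicate 3 (195 to 206) and Atp5o was at 8.66 there (11.7 to 12.8), Uqcrh was at 10.7 in replicate 5 (6.00 to 7.61) and Cox8b at 0.613 in replicate 6 (0 to 0.141).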

How the results depend on the processing

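The numbers of genes called were within 1.5 times of the values above in all alternatives but these. Asking for a log2 fold change of at least 1 left 4 of 43 genes between mature and embryonic retina, 1 of 3 from E14 to E17, 1 of 3 from E17 to P1, 0 of 23 from P1 to P6, 1 of 13 from P6 to P15, 0 of 2 from P15 to P28 and 0 of 6 from P28 to P60. From P6 to P15, median-of-ratios scaling gave 7 calls and edgeR 8 with 26 or 27 libraries. Fitting only the ages compared gave 14 calls from E14 to E17 and 0 from P28 to P60. Without P60 replicates 3, 4 and 5 there were 5 calls from E14 to E17 and 2 from P28 to P60. Leaving out 1 library gave 40 to 46 calls between mature and embryonic retina, 2 to 4 from E14 to E17, 2 to 3 from E17 to P1, 16 to 21 from P1 to P6, 7 to 12 from P6 to P15 (7 without P6 replicate 1, 8 without P6 replicate 3), 0 to 2 from P15 to P28 (0 without P15 replicate 3 or P28 replicate 4, 1 without P28 replicate 2) and 2 to 10 from P28 to P60 (2 without P28 replicate 4, 10 without P60 replicate 1). Replicate numbers did not pair the libraries (deviations from age means correlated at a median of -0.002 for the same number and 0.004 for different numbers), and the replicate block left 1 call from P28 to P60. The median of all features between mature and embryonic retina was -0.065, 0.001 with median-of-ratios scaling and 0.038 with edgeR, and that of these genes 0.04, 0.11 and 0.16. For mature against embryonic retina alone, the 43 genes named by rule had 1316 alternative values. Of these, 1262 kept direction and call, and 17 changed sign with no call before or after (12 of Cox7a1, 2 of Cox4i1, 2 of Ndufa7 and 1 of Cox7a2). A further 33 newly passed, 4 (Atp5b) no longer passed and 0 called values reversed. Calls at the steps between ages are not among these values, and several were lost, as described above. The causes were not tested. At 7076646 reads, the shallowest library, genes near 1 CPM rest on few reads.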
